A study of Mus musculus with 18 samples.

Results

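The 56 genes described here lie in a row on mouse chromosome 2, between position 118111876 (the start of Thbs1) and position 122749475 (the end of Bloc1s6) of the GRCm38 genome, a stretch of 4637.6 kb. They are 56 of the 52433 gene symbols that the count table holds once symbols that had turned into dates are set aside. The members were chosen by measured values: the stretch was picked because APOE2 mice held a dense run of genes there that differed from the other genotypes, so every difference between APOE2 mice and the other mice is given below as a description, with no test. The working name of the block runs from Bub1b to Spg11, but 5 members lie before Bub1b and 6 lie after Spg11. Of the 56 members, 54 had enough reads to enter the test across all genes. The read filter favours a difference in any member that entered only through a genotype in which it is high. Whether any did was not examined.

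RNA was sequenced from hemibrains (the tissue of 1 side of the brain) of 18 mice aged 12 months, with 1 library per mouse. The mice were APOE2/APOE2, APOE4/APOE4 or APOE3/APOE3 homozygotes made by targeted replacement, in which human APOE stands in place of the mouse gene, with 6 mice per genotype, 3 females and 3 males in each. All are labelled with the strain C57bl/6, and all 18 carry a human allele, so there is no mouse with its own Apoe gene to compare with. How the 3 lines were bred, and whether the mice of a line share litters, is not given in the sources used here, so genotype and line cannot be told apart. Names of mice end in no letter or c in APOE2, in d, e or f in APOE4 and in e, f or g in APOE3 mice, and what the letters stand for is not given either, so they cannot be told apart from genotype in any APOE2 comparison.

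Human apoE carries lipids between cells of the brain, and its common isoforms differ in receptor and lipid binding. The block does not hold Apoe, which lies on another chromosome, and its genes share a place rather than a pathway. They include Bub1b, which encodes the checkpoint protein BubR1 that holds dividing cells in mitosis until every chromosome is attached to the spindle, Ivd, the mitochondrial enzyme that oxidises isovaleryl-CoA in leucine breakdown, and Spg11, whose human counterpart is mutated in a hereditary spastic paraplegia. Most cells of an adult brain no longer divide, so genes used only by dividing cells tend to be scarce in whole tissue.

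The stretches before the first exon are shown for 3 members, chosen after their values were seen: Bub1b and Ivd, which were low in APOE2 mice, and Srp14, which was high. They are the RefSeq sequence of GRCm38.p6, cut before the first annotated exon base, at chr2:118597961-118598210 (plus strand), chr2:118861744-118861953 (plus strand) and chr2:118479712-118479946 (minus strand). Capitals mark the letters of 2 motifs known from promoters of mitotic genes, the cell cycle homology region (TTTGAA or TTCGAA) and the CCAAT box (CCAAT, or ATTGG on the other strand).
Bub1b: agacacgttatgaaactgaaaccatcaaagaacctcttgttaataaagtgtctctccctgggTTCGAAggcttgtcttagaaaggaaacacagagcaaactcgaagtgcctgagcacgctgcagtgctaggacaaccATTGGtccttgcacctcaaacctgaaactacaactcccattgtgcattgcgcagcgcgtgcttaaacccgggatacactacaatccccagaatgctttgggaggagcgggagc
Ivd: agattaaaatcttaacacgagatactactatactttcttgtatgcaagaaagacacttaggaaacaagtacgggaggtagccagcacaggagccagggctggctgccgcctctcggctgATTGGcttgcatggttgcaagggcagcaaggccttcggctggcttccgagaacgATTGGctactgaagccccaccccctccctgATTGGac
Srp14: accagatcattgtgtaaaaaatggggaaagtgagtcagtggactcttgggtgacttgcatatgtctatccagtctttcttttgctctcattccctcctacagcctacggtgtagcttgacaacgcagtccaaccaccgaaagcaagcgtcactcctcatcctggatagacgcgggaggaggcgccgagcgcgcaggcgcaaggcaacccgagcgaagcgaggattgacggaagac
The Bub1b stretch holds 1 TTCGAA and 1 ATTGG, the Ivd stretch holds 3 ATTGG, and none of these letters is in the Srp14 window. Both strands were searched in the 250 bases before the start of each gene in the RefSeq table, which matched 51 of the 56 members. TTCGAA was found for 3 of the 51 members (Gpr176, Bub1b and Chp1), 5.88%, against 1.55% of all 27025 genes. TTTGAA was found for 3 members (Zfp106, Ppip5k1 and Wdr76), 5.88%, against 18.3% of all genes, and the CCAAT box for 18 members, 35.3%, against 37.5% of all genes. The sequences are those of the reference strain, and the sequence carried by the mice studied was not read.

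Libraries held 49388680 to 59207594 counted reads in APOE2 mice, 48687743 to 52598657 in APOE4 mice and 43681710 to 50222849 in APOE3 mice. Levels are given in CPM, read counts scaled to a common library size with TMM factors, a scaling that evens out differences in library make-up. Reads on the mouse Apoe entry came to 36.2 to 42.3 CPM in APOE2 mice, 40.0 to 54.9 CPM in APOE4 mice and 36.6 to 45.1 CPM in APOE3 mice. Because the entry is the mouse sequence, these reads do not tell the human isoforms apart. Xist, the RNA of the inactive X chromosome, stood at 832 to 1114 CPM in mice labelled female and at 0.582 to 1.93 CPM in mice labelled male. In bulk tissue, fewer cells of a type and less RNA per cell cannot be told apart. The summed level of 3 neuron markers was 4487 to 5069 CPM in APOE2, 4123 to 4797 CPM in APOE4 and 4461 to 4811 CPM in APOE3 mice, and markers of astrocytes, microglia and endothelium were present in every genotype, with no marker called. The 3 oligodendrocyte markers summed to 4370 to 5833 CPM in APOE2, 4113 to 5120 CPM in APOE4 and 3802 to 4658 CPM in APOE3 mice; all 3 fitted values were above 0 in APOE2 against APOE3 mice, none called but 2 at an unadjusted p under 0.05 (edgeR; Mbp at 0.27, SE 0.08, adjusted p 0.0677). The part of oligodendrocytes in the levels of block members was not tested.

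The members covered a wide range of levels. Per kb of exon, Map1a, which encodes a microtubule-binding protein of neurons, was the most abundant, at 139 RPKM in APOE2, 149 RPKM in APOE4 and 142 RPKM in APOE3 mice. Ckmt1, the mitochondrial creatine kinase, was next at 104, 88.7 and 92.1 RPKM. The median tested member stood at 6.53 RPKM in APOE2, 6.33 RPKM in APOE4 and 6.26 RPKM in APOE3 mice. At the low end, 3 tested members averaged under 1 CPM over the 18 mice (Fsip1, Nusap1 and Oip5). The other 2, Ell3 and Trim69, were not tested: Ell3 had 2 reads over all APOE2 mice, 3 over APOE4 mice and 1 over APOE3 mice, and Trim69 had 4, 9 and 9 reads. Mice of a genotype were close to each other: the median coefficient of variation of the tested members was 7.32% in APOE2, 7.46% in APOE4 and 4.94% in APOE3 mice.

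In APOE2 against APOE3 mice, the members' fitted differences split evenly, with 28 above 0 and 26 below 0 and a median log2 fold change of 0.02, against 0.00 over all 18891 genes tested. Their sizes were larger than usual, with a median absolute log2 fold change of 0.19, against 0.08 over all genes. An adjusted p under 0.05 in the edgeR quasi-likelihood fit was reached by 22 of 54 members, 11 with higher and 11 with lower levels in APOE2 mice, where 3.91% of all genes reached it, 1.9% higher and 2.01% lower. Since these differences chose the stretch, the counts are a description of it. Against APOE4 mice, 23 of 54 members reached that threshold, 13 higher and 10 lower in APOE2 mice, where 6.53% of all genes did, 3.01% higher and 3.52% lower. Both comparisons use the same 6 APOE2 mice, so they do not check each other. By edgeR, an unadjusted p under 0.05 was found for 3179 of all 18891 genes against APOE3 mice and for 3824 against APOE4 mice. Counts at that p given below are to be read beside these. Differences of more than 1.5-fold were few: 1 member higher (Wdr76) and 3 lower (Bub1b, Ivd and Spint1) against APOE3 mice, with the same numbers, 1 and 3, against APOE4 mice. The authors' deposited table lists 24 of the 56 members with an adjusted p under 0.05 for APOE2 over APOE3, 13 higher and 11 lower, where 4.19% of all genes with an adjusted p in the authors' deposited table reach it, 1.94% higher and 2.25% lower. The authors' deposited table for APOE2 over APOE4 lists 26 members, 15 higher and 11 lower, where 7.21% of all genes in it reach that p, 3.38% higher and 3.82% lower.

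In 12 members the range of the 6 APOE2 mice lay wholly apart from that of the 12 other mice, where this was so for 1.91% of all genes tested. APOE2 mice were above all others in 5 (Srp14, Tmem87a, Ccndbp1, Wdr76 and Bloc1s6; 0.81% of all genes) and below all others in 7 (Bub1b, Bmf, Ivd, Spint1, Itpka, Haus2 and Spg11; 1.1% of all genes). Against APOE3 mice alone the ranges were apart in 18 members, 10 higher and 8 lower, where 3.23% of all genes were apart. Against APOE4 mice alone they were apart in 15, 8 higher and 7 lower, where 3.48% of all genes were apart.

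**Figure D1:**
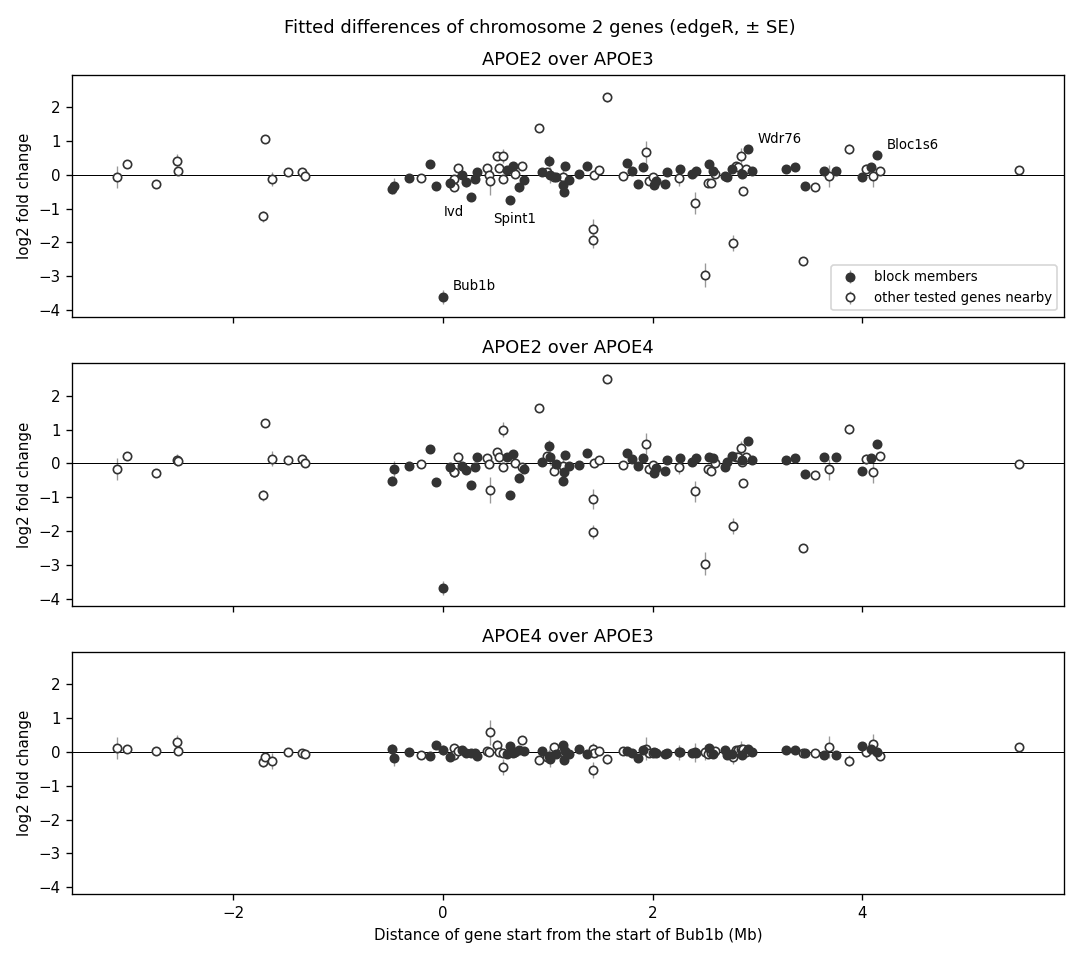
Fitted log2 fold change ± SE (y axis, edgeR) of tested genes by distance of the gene start from that of Bub1b in Mb (x axis), filled for block members and open for other tested genes nearby, in a panel each for APOE2 over APOE3, APOE2 over APOE4 and APOE4 over APOE3. Higher and lower genes lie side by side in both APOE2 panels, where Bub1b is the lowest member at -3.62 and -3.68, while members stay between -0.24 and 0.21 in the APOE4 over APOE3 panel.

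Among the 7 members that work in mitosis, at the spindle or at the centrosome, Bub1b and Haus2 stood apart. Bub1b (chr2:118598211-118641591, plus strand) had a lowest, median and highest level of 0.205, 0.241 and 0.332 CPM in the 6 APOE2 mice, 2.48, 3.23 and 4.16 CPM in APOE4 mice and 2.07, 3.12 and 4.88 CPM in APOE3 mice. Every APOE2 mouse was far below every other mouse. The reads behind these levels were 81 over all APOE2 mice, 1003 over APOE4 mice and 895 over APOE3 mice. The fitted log2 fold change was -3.62 (SE 0.20) over APOE3 and -3.68 (SE 0.20) over APOE4, which puts APOE2 mice at 0.0816 and 0.078 times the level of the other genotypes. In females the difference from APOE3 was -3.45 (SE 0.30) and in males -3.77 (SE 0.29).

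Haus2 (chr2:120609383-120621560) encodes a subunit of augmin, the complex that branches new microtubules from old ones in the spindle. It ran at 19.1, 22.5 and 23.1 CPM in APOE2 mice, 24.6, 26.8 and 29.4 CPM in APOE4 mice and 25.6, 26.2 and 28.7 CPM in APOE3 mice. The highest APOE2 mouse was below the lowest of the others, and the log2 fold change was -0.29 (SE 0.06) over APOE3 and -0.30 (SE 0.06) over APOE4. The other 5 members of this group overlapped between genotypes. Knstrn, a kinetochore protein that binds astrin, averaged 1.07 ± 0.20 CPM in APOE2, 1.22 ± 0.21 CPM in APOE4 and 1.23 ± 0.15 CPM in APOE3 mice (SD, n = 6 each). Oip5, which helps place the histone that marks centromeres, averaged 1.02 ± 0.21, 0.702 ± 0.119 and 0.763 ± 0.213 CPM in the same order, and the spindle protein gene Nusap1 0.478 ± 0.176, 0.420 ± 0.052 and 0.482 ± 0.141 CPM. Ttbk2, a kinase needed to build cilia, and Tubgcp4, of the gamma-tubulin ring complex, differed from APOE3 mice by a log2 fold change of 0.09 (SE 0.07) for Ttbk2 and 0.10 (SE 0.06) for Tubgcp4.

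Beside Bub1b stand the markers of dividing cells, whose levels overlapped between genotypes. The summed level of Mki67, Top2a and Cdk1, which mark cycling cells, was 1.65 to 2.57 CPM in APOE2, 1.80 to 2.96 CPM in APOE4 and 1.83 to 2.91 CPM in APOE3 mice, and none of the 3 was called in any genotype comparison (edgeR, 0 at an unadjusted p under 0.05). Elsewhere in the genome, 15 genes that work with Bub1b at the spindle checkpoint and kinetochore were measured. In APOE2 against APOE3 mice 1 was called higher and none was called lower, where 1.9% and 2.01% of all genes were. That gene was Ttk, the checkpoint kinase also known as Mps1, at 0.468 ± 0.129 CPM in APOE2, 0.291 ± 0.150 CPM in APOE4 and 0.251 ± 0.078 CPM in APOE3 mice (SD, n = 6 each), with a log2 fold change of 0.90 (SE 0.25) over APOE3 and an edgeR adjusted p of 0.046. Bub3, the direct partner of BubR1, had a log2 fold change of 0.03 (SE 0.05), Mad2l1 of 0.01 (SE 0.07) and Cdc20 of -0.03 (SE 0.16). Fitted values of the 15 genes over APOE3 ran from -1.28, which was not called, to 0.90. Of these values 9 were above 0 and 6 below 0 (edgeR, 3 at an unadjusted p under 0.05). Of 16 measured augmin and gamma-tubulin genes, none was called in APOE2 against APOE3 mice by edgeR (3 at an unadjusted p under 0.05). Haus5, another augmin subunit, fell in APOE4 against APOE3 mice, with averages of 0.477 ± 0.191 CPM in APOE4 mice and 0.939 ± 0.142 CPM in APOE3 mice (SD, n = 6 each), a log2 fold change of -0.99 (SE 0.21) and an edgeR adjusted p of 0.0203.

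Of the 11 members of chromatin and transcription, Wdr76 differed most. Wdr76 (chr2:121506723-121544860), a WD repeat protein found at sites of DNA damage, ran at 5.41, 5.82 and 6.58 CPM in APOE2 mice, 3.14, 3.82 and 4.31 CPM in APOE4 mice and 3.31, 3.53 and 3.85 CPM in APOE3 mice. All 6 APOE2 mice were above all 12 others, and the log2 fold change was 0.75 (SE 0.08) over APOE3 and 0.66 (SE 0.08) over APOE4. Rpap1, which joins RNA polymerase II subunits, ran at 29.8, 33.5 and 40.2 CPM in APOE2, 25.8, 29.0 and 31.4 CPM in APOE4 and 27.4, 28.4 and 29.4 CPM in APOE3 mice. Its APOE2 mice were above the APOE3 mice and overlapped the APOE4 mice.

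Smaller differences were seen elsewhere in this group. Ccndbp1, a cyclin D binding protein, averaged 54.6 ± 1.3 CPM in APOE2, 49.2 ± 2.6 CPM in APOE4 and 50.1 ± 1.5 CPM in APOE3 mice, with the APOE2 range above all others. Ctdspl2, a phosphatase gene, ran at 21.3, 25.9 and 30.4 CPM in APOE2, 17.2, 22.2 and 28.6 CPM in APOE4 and 20.9, 21.7 and 24.0 CPM in APOE3 mice, and its ranges overlapped. Zfp106, an RNA-binding zinc finger protein, averaged 320 ± 17 CPM in APOE2, 289 ± 20 CPM in APOE4 and 275 ± 11 CPM in APOE3 mice. Cdan1, which binds a histone chaperone, averaged 28.3 ± 2.6, 32.8 ± 3.2 and 34.2 ± 2.7 CPM in the same order. Its annotated exons share 3409 bases with those of Ttbk2 on the same strand, so reads from the shared part could be counted for neither or either. Ino80, Bahd1, Rtf1 and Mga, which encode the motor of a nucleosome remodeller, a heterochromatin protein, a transcription elongation factor and a partner of Max, had log2 fold changes over APOE3 of -0.15 (SE 0.06), -0.13 (SE 0.05), -0.06 (SE 0.04) and 0.04 (SE 0.05). None of 18 measured genes of the INO80 and PAF1 complexes was called in APOE2 against APOE3 mice by edgeR (2 at an unadjusted p under 0.05). Against APOE4 mice 1 was called, where 6.53% of all genes were. It was Uchl5, of INO80, which was higher in APOE2 mice by a log2 fold change of 0.23 (SE 0.05, edgeR adjusted p 0.00733).

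**Figure D2:**
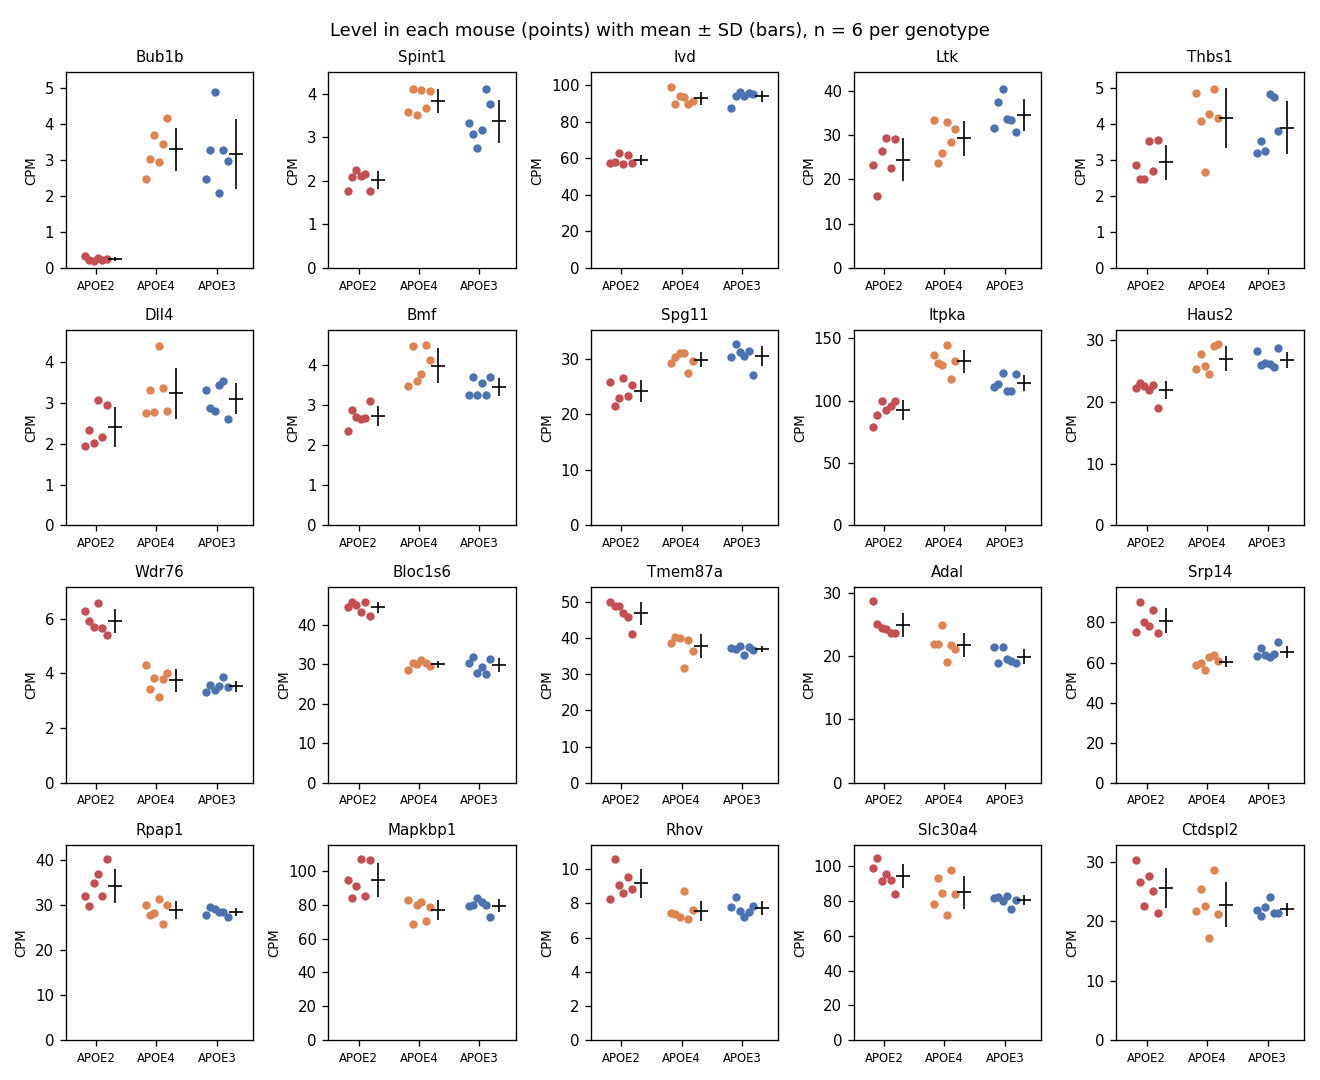
Level in CPM (y axis, from 0) in each mouse (points) with mean ± SD (bars, n = 6 per genotype) for the 10 members with the largest fitted decreases and the 10 with the largest fitted increases in APOE2 over APOE3 mice, among members of at least 1 CPM. APOE2 points of Bub1b, Ivd, Spint1, Wdr76 and Bloc1s6 lie clear of the APOE4 and APOE3 points, while those of Thbs1, Dll4 and Ctdspl2 overlap them.

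The 13 receptors, ligands and signalling members held 9 with lower and 4 with higher fitted levels in APOE2 than in APOE3 mice. Itpka (chr2:119742337-119751263), the kinase that phosphorylates inositol trisphosphate in dendritic spines of neurons, ran at 78.7, 93.7 and 99.4 CPM in APOE2, 117, 131 and 145 CPM in APOE4 and 108, 112 and 122 CPM in APOE3 mice. The APOE2 mice were below all others, with log2 fold changes of -0.31 (SE 0.06) over APOE3 and -0.51 (SE 0.06) over APOE4. Bmf, a BH3-only protein that promotes cell death, ran at 2.36, 2.69 and 3.10 CPM in APOE2, 3.46, 3.94 and 4.49 CPM in APOE4 and 3.24, 3.40 and 3.70 CPM in APOE3 mice. Here too every APOE2 mouse was below every other mouse, with a log2 fold change of -0.34 (SE 0.09) over APOE3 and -0.55 (SE 0.09) over APOE4.

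The receptor tyrosine kinase gene Ltk ran at 16.3, 24.8 and 29.4 CPM in APOE2, 23.7, 29.9 and 33.4 CPM in APOE4 and 30.7, 33.5 and 40.5 CPM in APOE3 mice. APOE2 and APOE3 mice did not overlap, and APOE4 mice overlapped both. Dll4, a ligand of Notch receptors in vessels, ran at 1.95, 2.25 and 3.07 CPM in APOE2, 2.76, 3.06 and 4.40 CPM in APOE4 and 2.62, 3.10 and 3.53 CPM in APOE3 mice, with overlap between all 3 genotypes. Pak6, a p21-activated kinase, averaged 70.9 ± 5.5 CPM in APOE2, 75.9 ± 5.7 CPM in APOE4 and 83.8 ± 4.3 CPM in APOE3 mice, and Tyro3, a TAM receptor of neurons, averaged 221 ± 13, 236 ± 19 and 246 ± 10 CPM. Neither the 6 measured genes of the TAM and ALK receptor systems (among them Axl, Mertk and Gas6) nor the 12 measured Notch genes held a called gene in any genotype comparison (edgeR, 0 and 2 at an unadjusted p under 0.05 in APOE2 against APOE3 mice).

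On the higher side, Mapkbp1, a scaffold of the JNK pathway, ran at 83.9, 92.8 and 107 CPM in APOE2, 68.9, 79.2 and 82.8 CPM in APOE4 and 72.8, 79.8 and 84.2 CPM in APOE3 mice. Its log2 fold change was 0.25 (SE 0.06) over APOE3 and 0.30 (SE 0.06) over APOE4. The atypical small GTPase gene Rhov ran at 8.29, 8.96 and 10.6 CPM in APOE2, 7.07, 7.42 and 8.72 CPM in APOE4 and 7.19, 7.67 and 8.40 CPM in APOE3 mice, and only its lower APOE2 mice reached into the others' range. Gpr176, an orphan receptor of the circadian clock, Disp2, a relative of the Hedgehog release protein, Chp1, a calcium-binding partner of the sodium-proton exchanger, Ppip5k1, an inositol pyrophosphate kinase, and Shf, an SH2 adaptor, had log2 fold changes over APOE3 between -0.09 and 0.10. Chp1 has a processed pseudogene of 97.45% identity, Gm20056, with 533 reads over all APOE2 mice, 13 over APOE4 mice and 12 over APOE3 mice. With the copy's reads added, the log2 fold change of Chp1 over APOE3 was 0.10 (SE 0.04), against 0.08 (SE 0.04) alone.

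The 3 members of the extracellular matrix or secreted proteins include Spint1 and Thbs1. Spint1 (chr2:119237362-119249527), an inhibitor of serine proteases on epithelial surfaces, ran at 1.76, 2.10 and 2.24 CPM in APOE2, 3.52, 3.88 and 4.11 CPM in APOE4 and 2.76, 3.25 and 4.11 CPM in APOE3 mice. The APOE2 mice were below all others, with log2 fold changes of -0.74 (SE 0.10) over APOE3 and -0.92 (SE 0.10) over APOE4. Thbs1, the matrix protein thrombospondin, which astrocytes can secrete, ran at 2.47, 2.78 and 3.57 CPM in APOE2, 2.66, 4.23 and 4.98 CPM in APOE4 and 3.20, 3.68 and 4.84 CPM in APOE3 mice, with overlap. Chst14, which sulfates dermatan, averaged 1.98 ± 0.23 CPM in APOE2, 1.75 ± 0.33 CPM in APOE4 and 1.88 ± 0.26 CPM in APOE3 mice. Beside Spint1, a gene of epithelia, the summed level of the choroid plexus markers Ttr, Folr1 and Kl ran at 390 to 1113 CPM in APOE2, 418 to 770 CPM in APOE4 and 527 to 748 CPM in APOE3 mice. All 3 had fitted values above 0 in APOE2 against APOE3 mice, none called but 2 at an unadjusted p under 0.05 (edgeR; Folr1 at 0.83, SE 0.23, adjusted p 0.0587). Of the 3 ependymal markers, Ccdc153 was called lower in APOE2 mice, at 1.94 ± 0.22 CPM in APOE2, 3.92 ± 0.70 CPM in APOE4 and 3.90 ± 0.44 CPM in APOE3 mice, while Foxj1 and Tmem212 were not called. The part of these cell types in the levels of block members was not tested.

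Of the 6 metabolic members, Ivd showed the narrowest spread beside its difference. Ivd (chr2:118861954-118882909, plus strand) ran at 56.6, 57.7 and 62.9 CPM in APOE2, 89.5, 92.4 and 98.7 CPM in APOE4 and 87.7, 94.5 and 96.1 CPM in APOE3 mice. No APOE2 mouse came near the others: the mean was 59.0 ± 2.7 CPM in APOE2, 92.7 ± 3.5 CPM in APOE4 and 93.8 ± 3.1 CPM in APOE3 mice, 0.629 times the APOE3 level. The log2 fold change over APOE3 was -0.68 (SE 0.06) in females and -0.66 (SE 0.06) in males. In APOE2 against APOE3 mice, 1.9% of all genes tested were called higher and 2.01% lower. Elsewhere in the leucine pathway, 2 of 10 measured genes were called higher in that comparison and none lower. They were Bckdhb and Dbt, subunits of the branched-chain ketoacid dehydrogenase that acts just before Ivd, with log2 fold changes of 0.24 (SE 0.06; edgeR adjusted p 0.0131) and 0.21 (SE 0.05; edgeR adjusted p 0.0225). Bckdhb averaged 21.4 ± 1.9 CPM in APOE2, 18 ± 0.7 CPM in APOE4 and 18.1 ± 1.0 CPM in APOE3 mice, and Dbt averaged 23.0 ± 1.6, 20.7 ± 1.3 and 19.8 ± 1.1 CPM. Bckdhb starts at position 83925145 of chromosome 9, where Ttk starts at position 83834689. Mccc1, Mccc2 and Auh, which act after Ivd, had log2 fold changes between -0.01 and 0.04 over APOE3.

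Adal, which deaminates methylated AMP, ran at 23.6, 24.4 and 28.6 CPM in APOE2, 19.1, 21.8 and 24.9 CPM in APOE4 and 18.8, 19.4 and 21.4 CPM in APOE3 mice. APOE2 and APOE3 mice did not overlap, and APOE4 mice overlapped both. Ckmt1 averaged 260 ± 14 CPM in APOE2, 221 ± 9 CPM in APOE4 and 230 ± 9 CPM in APOE3 mice, a log2 fold change of 0.18 (SE 0.04) over APOE3 and 0.23 (SE 0.04) over APOE4. Gatm, which makes the precursor of creatine, averaged 118 ± 7, 139 ± 13 and 123 ± 6 CPM, with a log2 fold change of -0.06 (SE 0.06) over APOE3 and -0.23 (SE 0.06) over APOE4. None of 3 measured partners in creatine handling, Gamt, Slc6a8 and Ckb, was called in any genotype comparison (edgeR, 0 at an unadjusted p under 0.05). Sord, sorbitol dehydrogenase, and Ganc, an alpha-glucosidase, both had a log2 fold change of 0.12 (SE 0.05) over APOE3. Over APOE4 the values were 0.20 (SE 0.05) for Sord and 0.13 (SE 0.05) for Ganc. Every APOE2 mouse was above every APOE4 mouse in Sord.

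Of the 9 members of membranes, transport and vesicles, 4 had an adjusted p under 0.05 and higher levels in APOE2 than in APOE3 mice. At that threshold 1 had lower levels. Over all genes tested, 1.9% were called higher and 2.01% lower, and of the 54 tested members 11 were called in each direction. Of the 9 fitted values over APOE3, 8 were above 0 and 1 was below 0, against 28 and 26 of the 54 members. These differences chose the stretch, so the counts only describe it. Bloc1s6 (chr2:122738503-122749475), the pallidin subunit of the BLOC-1 complex that sends cargo to lysosome-related organelles, ran at 42.4, 44.8 and 45.9 CPM in APOE2, 28.7, 30.2 and 31.3 CPM in APOE4 and 27.7, 29.8 and 31.9 CPM in APOE3 mice. All APOE2 mice were far above all others, with log2 fold changes of 0.58 (SE 0.04) over APOE3 and 0.57 (SE 0.04) over APOE4. None of the 11 measured other subunits of BLOC-1 and of the related BORC complex was called in any genotype comparison (edgeR, 1 at an unadjusted p under 0.05 in APOE2 against APOE3 mice). In APOE2 over APOE3 mice they ran from -0.34 (Bloc1s1) to 0.12 (Bloc1s2) on the log2 scale.

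Srp14 (chr2:118475850-118479711, minus strand), a protein of the signal recognition particle, ran at 74.7, 79.1 and 90.4 CPM in APOE2, 56.0, 60.2 and 63.6 CPM in APOE4 and 62.6, 64.0 and 70.1 CPM in APOE3 mice. Tmem87a, a Golgi membrane protein, ran at 41.2, 47.8 and 49.8 CPM in APOE2, 31.6, 39.0 and 40.2 CPM in APOE4 and 35.4, 37.1 and 37.8 CPM in APOE3 mice. In both genes the APOE2 mice lay above all 12 others, with log2 fold changes over APOE3 of 0.31 (SE 0.05) and 0.34 (SE 0.05). None of 8 measured genes of the signal recognition particle and its receptor was called in any genotype comparison (edgeR, 3 at an unadjusted p under 0.05 in APOE2 against APOE3 mice). For Srp9, which pairs with Srp14, the log2 fold change was 0.10 (SE 0.05) over APOE3. Slc30a4, the zinc transporter ZnT4, ran at 84.4, 93.7 and 105 CPM in APOE2, 72.1, 84.4 and 97.8 CPM in APOE4 and 75.6, 81.5 and 82.9 CPM in APOE3 mice. Its APOE2 mice were above the APOE3 mice and overlapped the APOE4 mice, and of 7 measured zinc transporters of its family none was called against APOE3 (edgeR, 2 at an unadjusted p under 0.05). Zfyve19, Tmem62, Frmd5 and Casc4 had log2 fold changes over APOE3 of 0.13 (SE 0.05), 0.02 (SE 0.04), 0.11 (SE 0.04) and 0.17 (SE 0.07). Zfyve19 acts in the checkpoint that delays the last cut of cell division, and Frmd5 is a FERM-domain protein at cell junctions.

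Spg11 (chr2:122053520-122118386, minus strand) was the member of this group that went the other way. It encodes spatacsin, which rebuilds lysosomes, and ran at 21.4, 24.2 and 26.4 CPM in APOE2, 27.4, 29.95 and 31.0 CPM in APOE4 and 27.1, 30.8 and 32.6 CPM in APOE3 mice. The APOE2 mice were below all others, with log2 fold changes of -0.34 (SE 0.05) over APOE3 and -0.30 (SE 0.05) over APOE4. Its exons overlap those of Eif3j1, which lies on the opposite strand, over 1107 bases, and Eif3j1 was also lower in APOE2 mice, at 1.33 ± 0.23 CPM in APOE2, 7.50 ± 0.53 CPM in APOE4 and 7.72 ± 0.48 CPM in APOE3 mice. The strand setting of the counting is not given in the sources used here, so reads of this pair cannot be told apart. An annotated pseudogene copy of 99.87% identity over 747 bases, Gm3650, had 136 reads over all APOE2 mice and 0 over APOE4 and over APOE3 mice, where a count of 0 allows up to 3 reads. With the copy's reads added, the log2 fold change of Spg11 over APOE3 was -0.31 (SE 0.05). None of 5 measured partners in the spastizin and AP-5 complex was called in any genotype comparison (edgeR, 1 at an unadjusted p under 0.05 in APOE2 against APOE3 mice). Zfyve26, which encodes spastizin, had a log2 fold change of -0.15 (SE 0.06) over APOE3.

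The last 7 members are 2 of the cytoskeleton, 4 of protein turnover and aggregation and Fsip1, a sperm tail protein. Map1a averaged 1695 ± 79 CPM in APOE2, 1810 ± 131 CPM in APOE4 and 1729 ± 74 CPM in APOE3 mice, and the kinesin gene Stard9 averaged 36.9 ± 6.0, 40.9 ± 4.1 and 41.8 ± 4.9 CPM. Capn3, a calpain protease, averaged 6.30 ± 0.63 CPM in APOE2, 6.71 ± 0.41 CPM in APOE4 and 7.58 ± 0.43 CPM in APOE3 mice. Ubr1, a ubiquitin ligase that reads protein ends, averaged 96.2 ± 7.0, 86.1 ± 5.0 and 85.6 ± 2.8 CPM, and Serf2, a modifier of amyloid aggregation, 39.5 ± 2.0, 36.7 ± 1.5 and 38.8 ± 1.0 CPM. The ranges of these 5 overlapped between APOE2 mice and both other genotypes. Capn3 shares 386 exon bases with Ganc, and Serf2 shares 1893 with Hypk, on the same strand, so their counts are uncertain. In all, 8 members share annotated exon bases with another gene on the same strand and 24 with a gene on the opposite strand. Fsip1, at 126 reads over APOE2, 137 over APOE4 and 143 over APOE3 mice, had a log2 fold change of -0.34 (SE 0.24) over APOE3.

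**Figure D3:**
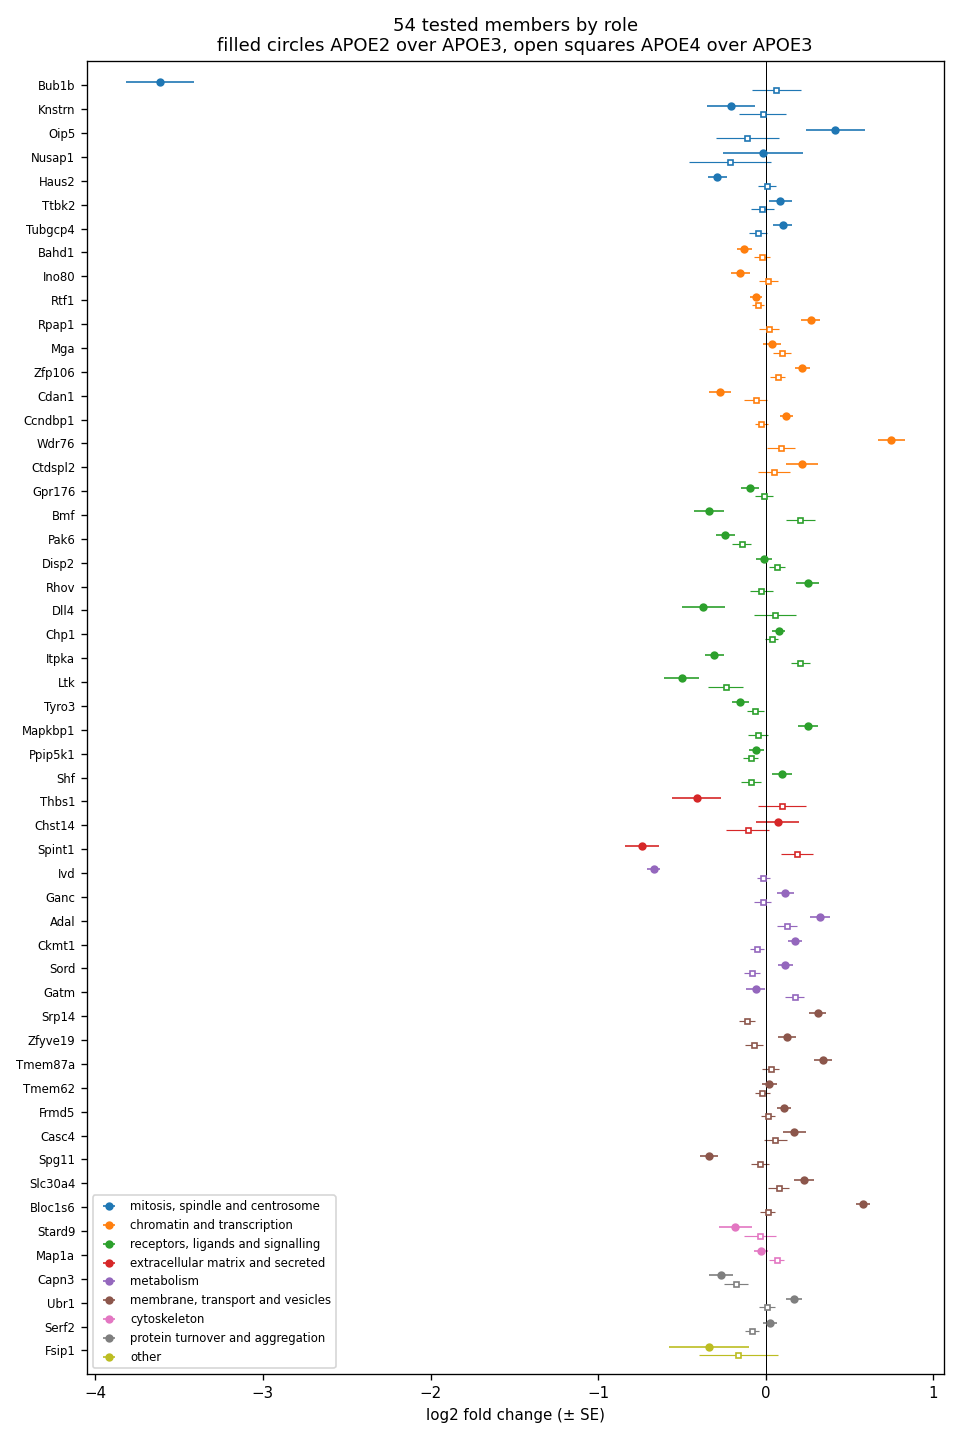
Fitted log2 fold change ± SE (x axis, edgeR) of the 54 tested members (rows, grouped by role in colour) in APOE2 over APOE3 mice (filled circles) and APOE4 over APOE3 mice (open squares). Filled circles of a role lie on both sides of 0 in most roles, with 8 of 9 above 0 for membranes, transport and vesicles, while the open squares stay between -0.24 and 0.21.

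APOE4 against APOE3 mice gave a comparison that did not itself choose the members. The same mice were the other side of the APOE2 comparisons, so it is not independent of the choice. None of the 54 members was called (edgeR quasi-likelihood test, Benjamini-Hochberg adjustment over 18891 genes), where 0.773% of all genes were, 0.429% higher and 0.344% lower. DESeq2 and limma voom called none either (9 and 8 at an unadjusted p under 0.05), and the authors' deposited table for this pair lists 0 of 56, where 1.25% of all genes in it reach an adjusted p under 0.05. At an unadjusted p under 0.05 there were 8 of 54 members by edgeR, where 1658 of all 18891 genes were. The ranges of APOE4 and APOE3 mice overlapped in all 54 members, where 1.48% of all genes were apart, and 41 members had a log2 fold change within 0.1 of 0. The smallest p belonged to Itpka, with a log2 fold change of 0.21 (SE 0.06) and an edgeR adjusted p of 0.106, followed by Gatm at 0.17 (SE 0.06) and an adjusted p of 0.23. Itpka was called where APOE4 replicate 5 was left out, with a log2 fold change of 0.24 and an adjusted p of 0.0235. For Bub1b the log2 fold change was 0.06 (SE 0.15), for Ivd -0.02 (SE 0.04), for Wdr76 0.09 (SE 0.08) and for Bloc1s6 0.01 (SE 0.04). A p that misses the threshold does not show that the genotypes are alike, and the median SE of a member was 0.06 on the log2 scale.

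Sex was balanced within each genotype and did not choose the members. Names of all APOE4 and APOE3 males end in e, and those of the females in d, f or g. In these genotypes the letters therefore cannot be told apart from sex. None of 54 members was called between females and males by edgeR, DESeq2 or limma voom (3, 3 and 4 at an unadjusted p under 0.05). Over all genes edgeR called 0.132%, 0.0847% higher and 0.0476% lower in females. It gave an unadjusted p under 0.05 for 1599 of all 18891 genes. The 3 members below that unadjusted p by edgeR were Ttbk2 at a log2 fold change of 0.14 (SE 0.06), Map1a at 0.07 (SE 0.03) and Ltk at -0.21 (SE 0.09), with adjusted p of 0.540, 0.584 and 0.541. The test of whether genotype differences depend on sex called 0 members and 0% of all genes, and DESeq2 and limma voom called 0 members (1 and 3 at an unadjusted p under 0.05). An unadjusted p under 0.05 in that edgeR test was found for 2 members, Thbs1 and Nusap1. For Thbs1 the log2 fold change of APOE2 over APOE3 was -0.78 (SE 0.17) in females and -0.03 (SE 0.17) in males, with an adjusted p of 0.821 for the dependence on sex.

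**Figure D4:**
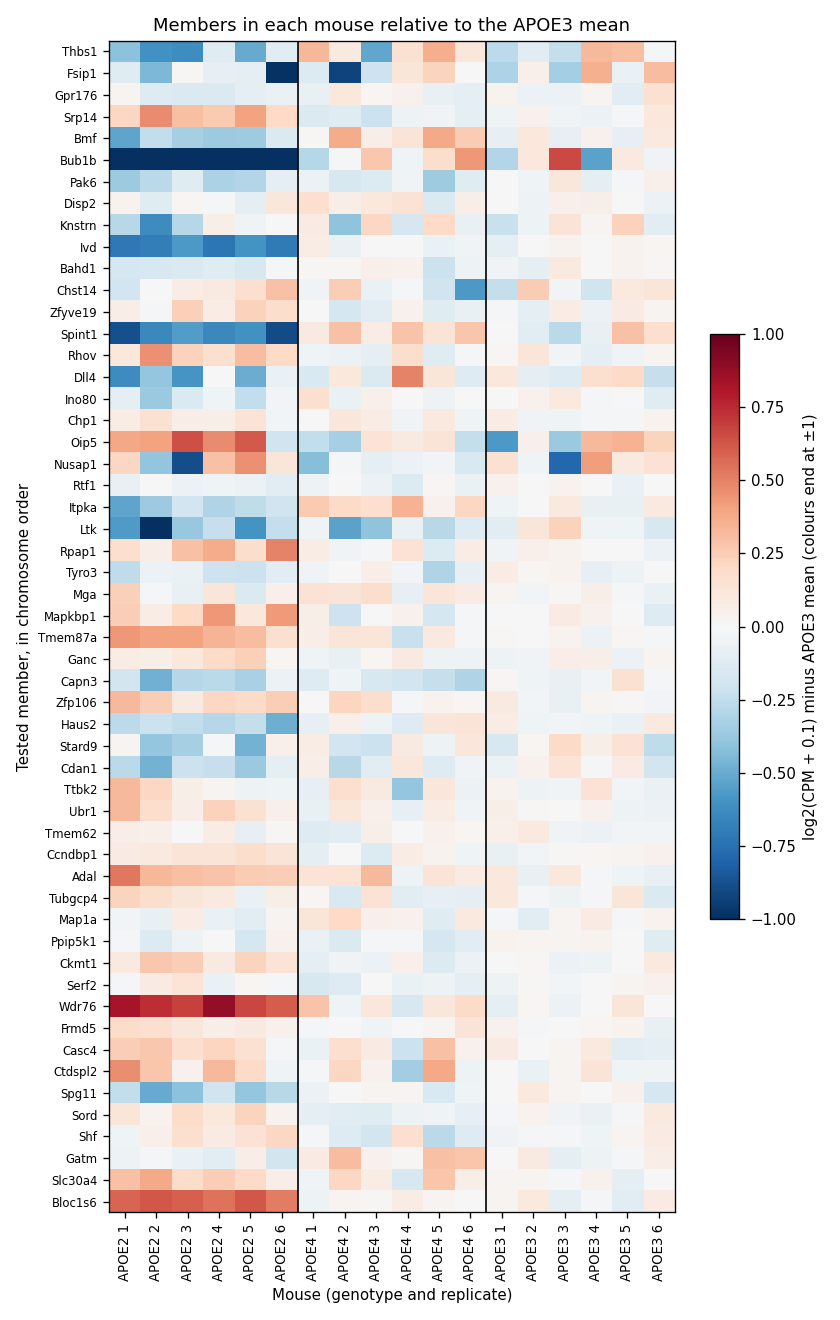
Log2(CPM + 0.1) of the 54 tested members (rows, in chromosome order) in each of 18 mice (columns, APOE2, APOE4 and then APOE3) minus the mean of the APOE3 mice, with colours ending at 1 in either direction. Bub1b, Ivd and Spint1 are low and Wdr76 and Bloc1s6 are high in all 6 APOE2 columns, and rows next to each other often differ in direction.

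The members were listed from a window between 117 and 123 Mb that also holds other genes, and these were part of the dense run too. In APOE2 against APOE3 mice, 17 of 49 other tested genes in the window had an adjusted p under 0.05, 8 higher and 9 lower. Over all genes 3.91% did. Against APOE4 mice 19 of the 49 did, where 6.53% of all genes did. In APOE4 against APOE3 mice 0 of the 49 did (6 at an unadjusted p under 0.05, edgeR), where 0.773% of all genes did. Some of these other genes differed by more than most members. Chosen after their values were seen, these include the phospholipase gene Pla2g4e at 69.4 ± 6.8 CPM in APOE2, 12.3 ± 3.3 CPM in APOE4 and 14.2 ± 1.5 CPM in APOE3 mice, and Exd1 at 5.25 ± 0.58, 1.70 ± 0.17 and 2.01 ± 0.26 CPM. Pla2g4e had a log2 fold change of 2.29 (SE 0.13) and Exd1 of 1.39 (SE 0.10) over APOE3. The largest decreases were those of Tgm7, Eif3j1, Strc and Pla2g4b: Tgm7 had a log2 fold change of -2.96 (SE 0.35), Eif3j1 of -2.54 (SE 0.09), Strc of -2.01 (SE 0.24) and Pla2g4b of -1.94 (SE 0.22), all but Eif3j1 at an average below 2 CPM in every genotype. Pla2g4e lies between Mapkbp1 and Tmem87a, whose own log2 fold changes over APOE3 were 0.25 and 0.34.

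At the edges of the block the first members were Thbs1, Fsip1 and Gpr176, with log2 fold changes over APOE3 of -0.41 (SE 0.15), -0.34 (SE 0.24) and -0.09 (SE 0.05). Just before them, Rasgrp1, Fam98b and Spred1 had -0.05 (SE 0.05), 0.09 (SE 0.06) and 0.08 (SE 0.11). Farther out, outside the window, 8 genes were tested between 115 and 117 Mb. From the window outwards, Gm29340 had -0.12 (SE 0.22), D330050G23Rik 1.05 (SE 0.11), Tmco5 -1.23 (SE 0.16), G630016G05Rik 0.11 (SE 0.12), 2700033N17Rik 0.42 (SE 0.19), Meis2 -0.28 (SE 0.05), BC052040 0.31 (SE 0.06) and 3110099E03Rik -0.07 (SE 0.33). At the other end Slc30a4 and Bloc1s6 had 0.23 (SE 0.06) and 0.58 (SE 0.04), and just beyond them Sqor had 0.10 (SE 0.08). Sema6d, the next tested gene, starts farther out at position 124089969 and had 0.15 (SE 0.05). By stretches of 1 Mb, the genes with an adjusted p under 0.05 in APOE2 against APOE3 mice numbered 0 of 3 tested between 117 and 118 Mb, 7 of 16 to 119 Mb, 10 of 28 to 120 Mb, 8 of 20 to 121 Mb, 8 of 23 to 122 Mb and 6 of 13 to 123 Mb. Past the window they numbered 0 of 1 between 124 and 125 Mb, 1 of 14 to 126 Mb and 2 of 10 to 127 Mb. Beyond that they numbered 5 of 21 to 128 Mb, 0 of 8 to 129 Mb and 3 of 19 to 130 Mb, the last stretch counted. Before the window they numbered 2 of 5 between 116 and 117 Mb, 2 of 3 between 115 and 116 Mb, and 0 of 5, 0 of 4 and 0 of 9 in the stretches down to 114, 113 and 112 Mb, with 0 of 5 between 110 and 111 Mb. Over all genes the share was 3.91%.

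With 1 gene that lies in the window left out, the 11 lists of genes that work with block members hold 119 genes. Of these 119 genes, 111 were measured. In APOE2 against APOE3 mice 3 of them rose and 0 fell, 2.7% of those measured, where 3.91% of all genes were called. In APOE2 against APOE4 mice 6 rose and 0 fell, 5.41%, where 6.53% of all genes were called: Cenpa, Haus5, Haus8, Bckdhb, Uchl5 and Slc30a9, with log2 fold changes between 0.15 (Slc30a9) and 1.04 (Haus5). In APOE4 against APOE3 mice 0 rose and 1 fell, 0.901%, where 0.773% were called. These shares are near those of all genes. The 3 genes that rose over APOE3 were reduced to 1 where APOE2 replicate 2 or 4, or APOE3 replicate 2 or 5, was left out, and the call of Haus5 was lost without APOE3 replicate 2 or 5 or without APOE4 replicate 5.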

How the data were processed

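The deposited counts are whole reads per gene symbol, not normalized. Per the submitters' processing notes, reads were handled with Trimmomatic, STAR 2.7.0, featureCounts and DESeq2 on GRCm38 (mm10); per the labels' protocols, libraries were stranded and poly(A)-selected. For the counting, no strand setting or annotation release is given in the sources used here, and shared exons can therefore blur neighbouring genes. The authors' deposited tables of comparisons give log2 fold changes and adjusted p-values, per the file headers, and are used only where named.

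From the counts, 52459 symbols less 26 that had become dates (0.304% to 0.322% of counts), 18891 genes passed edgeR's filterByExpr. They were fitted in one edgeR 4.0.16 quasi-likelihood model (R 4.3.3) over all 18 libraries, with TMM scaling, genotype and additive sex, and Benjamini-Hochberg adjustment over all genes; a gene is called at an adjusted p under 0.05. The biological coefficient of variation was 0.0845. A standard error (SE) is the log2 fold change divided by the square root of F. The dependence on sex was tested with an interaction term. RPKM divides CPM by annotated exon length. Positions came from GENCODE M21 (GRCm38), where 47982 symbols (91.5%) matched a single gene. Copies were sought with blastn 2.17.0 among pseudogene transcripts (at least 90% identity, 50% of the copy and 200 bases).

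The members, gene lists and tests were chosen with earlier results of these data known. Values in every genotype were given for the 10 largest increases and 10 largest decreases over APOE3 among members of at least 1 CPM, and each role named its members; of each partner list, up to 4 called genes were to be named. Genes of the window that are not members were named after their values were seen. Alternatives were DESeq2 1.42.0, limma 3.58.1 (voom), other scalings, filters, samples and thresholds, no sex term, summed copies and each library left out. Replicate numbers only name a mouse. The method was tested on simulated data. Total reads per library, from 43681710 to 59207594, set the precision of low genes, and counts of 0 cover counting error only.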

Additional observations from a re-analysis of the deposited data

Results flagged for a closer look

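Each genotype's 6 mice were examined for a mouse far from the other 5, for the 20 members with values in every genotype; 5 of 60 groups held one, and chance flags about 1 in 20 groups. Ivd was lowest in APOE3 replicate 1, at 87.7 CPM, with the other 5 APOE3 mice between 93.9 and 96.1 CPM; this mouse was still above every APOE2 mouse. Haus2 was lowest in APOE2 replicate 6, at 19.1 CPM, with the other APOE2 mice between 22.0 and 23.1 CPM. Adal was highest in APOE2 replicate 1, at 28.6 CPM, with the others between 23.6 and 25.1 CPM. Dll4 and Rhov were both highest in APOE4 replicate 4, Dll4 at 4.40 CPM with the others between 2.76 and 3.35 CPM, and Rhov at 8.72 CPM with the others between 7.07 and 7.64 CPM.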

How the results depend on the processing

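The counts of calls and the fold changes of the 20 members with values in every genotype (APOE2 over APOE3 and over APOE4) were recomputed, and none of these fold changes changed sign; fold changes of the other genes were not recomputed, apart from summed copies. At an adjusted p under 0.01, the members called were 14 against APOE3 and 15 against APOE4 in APOE2 mice, all genes called were 449, 677 and, in APOE4 against APOE3 mice, 90, and the partner genes called were 0 in APOE2 against APOE3 and 0 in APOE4 against APOE3 mice. DESeq2 called 272 of all genes in APOE4 against APOE3 mice, against 146 by edgeR. With no filter on low counts, 1 member (Itpka) was called in APOE4 against APOE3 mice. With only the 5 APOE4 and 5 APOE3 mice whose names end in e or f, 0 partner genes were called. Leaving out each library in turn, members called ranged between 18 and 24 in APOE2 against APOE3 mice, between 17 and 29 in APOE2 against APOE4 mice and between 0 and 1 in APOE4 against APOE3 mice, and stayed at 0 for sex and its interaction. All genes called ranged between 574 and 1026, between 947 and 1903 (the highest without APOE4 replicate 5) and between 104 and 162 in the same comparisons. Partner genes called ranged between 1 and 4 in APOE2 against APOE3 mice and between 0 and 2 in APOE4 against APOE3 mice, the 2 without APOE4 replicate 1. Named members that fell short of the threshold under some alternative were Bmf, Mapkbp1, Rhov and Slc30a4 over APOE3 and Thbs1, Dll4 and Adal over APOE4; the cause was not tested. The log2 fold change of Bub1b over APOE3 stayed between -3.74 and -3.47. No paired analysis was possible because the labels give no replicate numbers shared between genotypes. With 81 reads of Bub1b over all APOE2 mice, 126 of Fsip1 and 154 of Nusap1, counting error limits these tested members most.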
